A study of Mus musculus with 6 samples.

Results

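The genes of the SWI/SNF, CHD, ARID and INO80 chromatin remodelers were examined in polyA RNA-Seq data from mouse embryonic stem cells (mESCs) in which RNA polymerase II (Pol II) was degraded. Members were chosen by a rule on the gene symbol, which uses no measured value but was proposed with earlier results of these data known, as every gene named Smarc with a letter from a to e, Chd or Arid with a family number, or Ino80 with or without a subunit letter. This gave 36 of the 39017 counted genes, of which 13 carried Smarc symbols, 9 Chd, 9 Arid and 5 Ino80. All 36 were annotated as protein-coding in GENCODE vM21, and all 36 passed the filter on low counts in both comparisons described here.

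Chromatin remodelers are enzymes that use ATP to slide, evict or restructure nucleosomes and so set which stretches of DNA are open to transcription factors and to Pol II. The SWI/SNF complexes, called BAF in mammals, are built around a single ATPase with scaffold and DNA-binding subunits, the CHD proteins carry paired chromodomains that read histone tails, the ISWI ATPases space nucleosomes, and the INO80 complex slides them and exchanges histone variants. mESCs are known for a BAF complex built on Smarca4 and Smarcc1, and Chd1, Chd4 and Ino80 have each been tied to the maintenance or the exit of pluripotency.

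The 6 libraries formed 3 groups of 2, so that each group's spread rests on 2 values. All cells derive from V6.5, a mESC line from a cross of C57BL/6 and 129/sv mice, and were grown on irradiated mouse embryonic fibroblasts, called feeders, in serum with leukemia inhibitory factor. In the Pol II degron cells, which are a clone with both alleles tagged, RPB1, the largest subunit of Pol II, ends in a mAID-GFP tag, and the plant F-box protein OsTIR1, inserted at Rosa26 and induced by doxycycline, marks tagged RPB1 for degradation once auxin is added. The untreated group received 1 μg/ml doxycycline for 12 h and no auxin. The auxin group received the same doxycycline and then 500 μM auxin (indole-3-acetic acid) for 6 h. The wild-type group carries no tag on Pol II, and whether it received doxycycline is not given in the sources used here. The record of the wild-type libraries mentions retinas in its RNA extraction, although the cell type label is mESC. The summed level of 6 retina markers was 0.744 and 1.14 CPM (counts per 1000000 in the library) in the wild-type libraries against 3365 to 6464 CPM for 8 mESC markers over all 6 libraries, and the retina markers Crx and Rcvrn were at 0 in every library.

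The 6 libraries held 14094022 to 15358714 counts each. Polr2a, which encodes RPB1, had 6623 and 6568 counts in the untreated, 10396 and 10663 in the auxin and 6866 and 7129 in the wild-type libraries. Its mRNA was 1.49-fold higher after auxin (log2 fold change 0.57 ± 0.07 SE, adjusted p = 0.00117 after Benjamini-Hochberg adjustment, edgeR quasi-likelihood test). The tag acts on the protein, so this mRNA level does not check the depletion. Of the 6 heart muscle markers, 5 were called higher after auxin, with summed levels of 10.2 and 10.7 CPM untreated and 33.5 and 38.8 CPM after auxin. Of the 8 mESC markers, 4 were called lower after auxin, with summed levels of 3979 and 4472 CPM untreated and 3365 and 3566 CPM after auxin. The feeder markers summed to 2082 to 2119 CPM untreated, 2297 to 2459 CPM after auxin and 1643 to 1671 CPM in wild-type. Most of this sum was Fn1, with 27695 and 28255 counts untreated, 32559 and 34170 after auxin and 22528 and 23038 in wild-type. Lum had at most 1 and Dcn at most 4 counts in any library, so the sum mainly followed Fn1. The part of these shifts in the results below was not tested. Counts were taken on RNA from whole cultures, where fewer cells of one type and less RNA per cell cannot be told apart, and every level is a share of the counted RNA in its library, so that a loss common to all genes would not be seen.

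Levels of different genes were compared per length, as counts per kilobase of merged exons and per 1000000 counts in the library (RPKM), and are given as the mean ± SD of the 2 untreated libraries. The median RPKM of the 36 members was 8.39, against 4.76 over the 16290 tested genes with a known length, and 28 of the 36 lay above that value. The highest member was Chd4, an ATPase of the nucleosome remodeling and deacetylase complex NuRD, at 64.9 ± 0.41 RPKM. It was followed by the BAF ATPase Smarca4 at 43.0 ± 0.95, the ISWI ATPase Smarca5 at 38.3 ± 1.65, the BAF scaffold Smarcc1 at 30.5 ± 0.57 and the BAF subunit Smarcd1 at 29.9 ± 2.68 RPKM. Smarcc1 and Smarcd1 did not differ beyond their spread, since the Smarcd1 values of 28.0 and 31.8 RPKM enclose those of Smarcc1 at 30.1 and 30.9. These 5 genes supply an ATPase each to NuRD, BAF and ISWI and a pair of subunits to BAF.

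The middle of the order held the remaining subunits and the larger CHD genes. The BAF subunits Arid1a (24.9 ± 0.05), Smarcd2 (22.0 ± 1.01), Smarce1 (16.6 ± 0.83) and Smarcb1 (11.0 ± 0.57 RPKM) stood above the PBAF subunit Arid2 (9.37 ± 0.95 RPKM). Chd1, which binds trimethylated lysine 4 of histone H3, stood at 18.0 ± 1.13 RPKM and its paralog Chd2 at 11.5 ± 0.08. The INO80 genes ranged from Ino80b at 16.4 ± 0.05, through the ATPase Ino80 at 10.3 ± 0.01, Ino80c at 6.82 ± 0.12 and Ino80e at 6.60 ± 0.27, down to Ino80d at 4.16 ± 0.22 RPKM. The stand-alone SNF2 enzymes Smarcad1, which acts in DNA end resection and heterochromatin upkeep, and Smarcal1, which remodels stalled replication forks, lay next to each other at 7.04 ± 0.69 and 6.87 ± 0.14 RPKM and overlapped between libraries.

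The lowest 5 members by merged exons began with Arid4b, a partner of the Sin3 deacetylase complex, at 2.69 ± 0.21 RPKM, although the longest transcript in place of merged exons puts it at 7.79 RPKM, above Chd5 at 3.98. Next stood the ISWI ATPase Smarca1 at 1.43 ± 0.002 RPKM. Below 1 RPKM were Smarcd3, a BAF subunit of heart and muscle, at 0.771 ± 0.03, Arid5a, an RNA-binding protein of inflammation, at 0.541 ± 0.07, and Smarca2, the second BAF ATPase, at 0.347 ± 0.03. Smarca2 had 75 and 68 counts in the untreated, 82 and 96 in the auxin and 53 and 64 in the wild-type libraries, so no member was at or near 0 in any library. In all 3 groups Chd4 was the highest and Smarca2 the lowest member with either length, as the plot of levels by library shows for merged exons. The order of the members next to Chd4 depended on the length, since by the longest transcript Smarca5 stood at 48.7, Smarca4 at 43.7 and Smarcc1 at 41.3 RPKM in untreated cells.

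**Figure D1:**
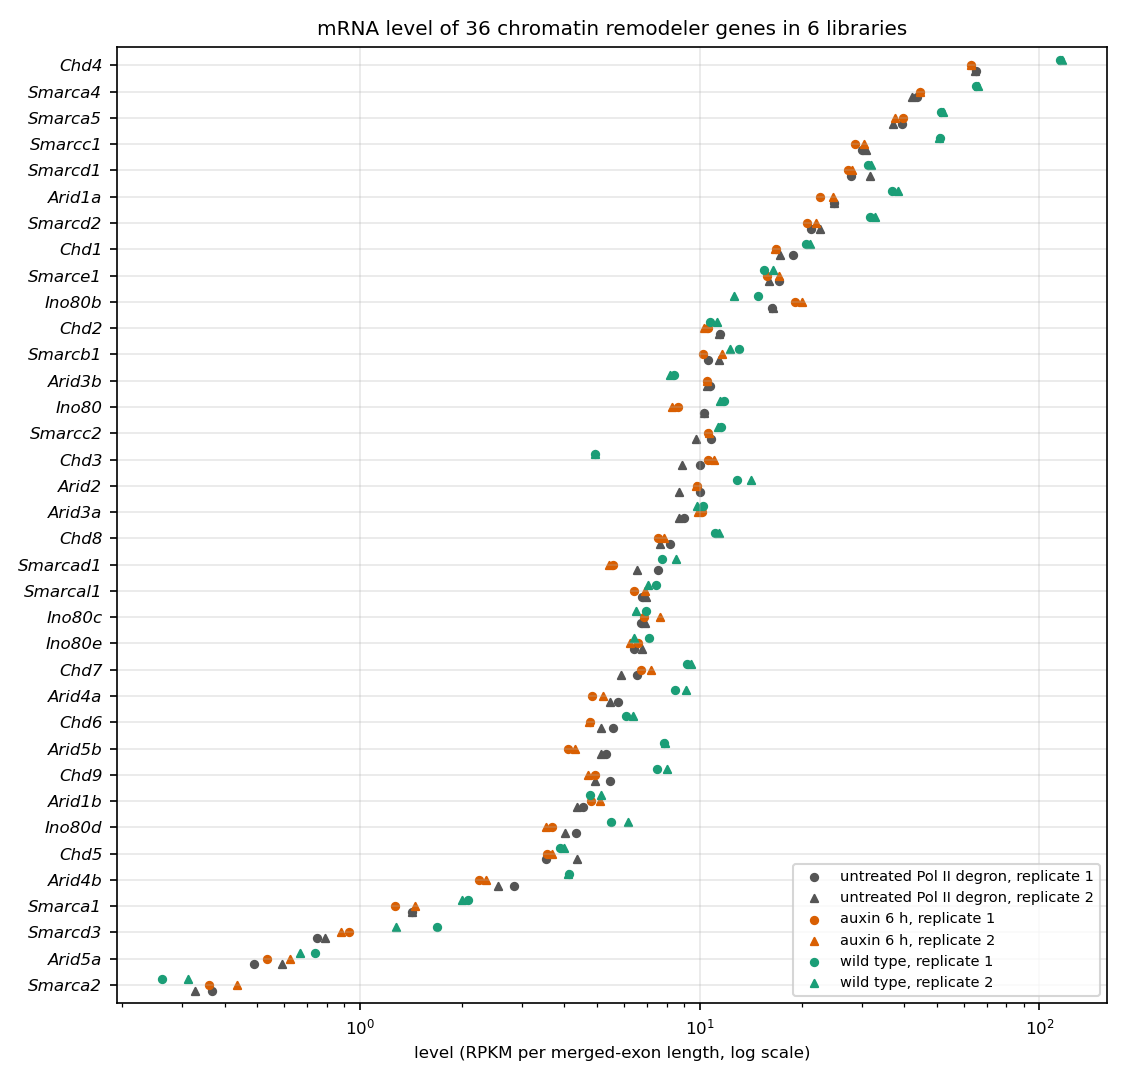
Level of each of the 36 members in RPKM on a log axis, with a point per library (2 untreated, 2 auxin, 2 wild-type) and members ordered by their untreated mean. Chd4 is highest at 64.9 RPKM and Smarca2 lowest at 0.347 RPKM in untreated cells, and the wild-type points of Chd4, at 115.3 and 116.6 RPKM, lie to the right of the other libraries.

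In the BAF ATPase, ISWI ATPase, ARID1, SMARCC and NuRD ATPase sets of paralogs, 1 gene supplied most of the RNA. Smarca4 made up 99.2% and 99.2% of the summed RPKM of both BAF ATPases in the untreated, 99.2% and 99.0% in the auxin and 99.6% and 99.5% in the wild-type libraries. Smarca5 made up 96.5% and 96.3% of the ISWI ATPases untreated, 96.9% and 96.3% after auxin and 96.1% and 96.3% in wild-type. The mean ratio of the 2 genes in untreated cells was 124-fold for the BAF and 26.8-fold for the ISWI ATPases. Arid1a made up 84.6% and 85.1% of the ARID1 subunits untreated, 82.5% and 83.0% after auxin and 88.6% and 88.2% in wild-type. Smarcc1 made up 73.5% and 76.0% of the SMARCC scaffolds untreated, 73.1% and 74.2% after auxin and 81.5% and 81.7% in wild-type. Both of these BAF paralog sets were more one-sided in each wild-type library than in any untreated or auxin library.

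Other sets were more evenly shared. Among CHD6 to CHD9 the untreated means ran from 21.0% (Chd9) to 32.1% (Chd8), and Chd1 made up 61.1% against 38.9% for Chd2. The SMARCD set was also shared between paralogs. Smarcd1 made up 56.0% and 57.5% untreated, 55.9% and 55.0% after auxin and 48.4% and 48.4% in wild-type, where Smarcd2 supplied 49.0% and 49.7%. In the NuRD set, Chd4 made up 82.8% and 83.0% untreated, 81.6% and 81.0% after auxin and 92.9% and 92.9% in wild-type. Chd3, a second NuRD ATPase, made up 12.7% and 11.4% untreated, 13.8% and 14.3% after auxin and 3.97% and 3.93% in wild-type. The ratio of Chd4 to Chd3 was 6.89 untreated, 5.80 after auxin and 23.5 in wild-type, the largest shift among the 12 pairs of paralogs compared. With 2 libraries against 2, an exact permutation test cannot give a two-sided p below 0.333, so no test of a share is given. The length used for a gene decides the order in some sets: with the longest transcript in place of merged exons, the share of Arid4a against Arid4b, both partners of Sin3, was 44.7% untreated in place of 67.6%, and that of Arid3a against Arid3b, both DNA-binding factors, was 39.6% in wild-type in place of 54.7%.

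**Figure D2:**
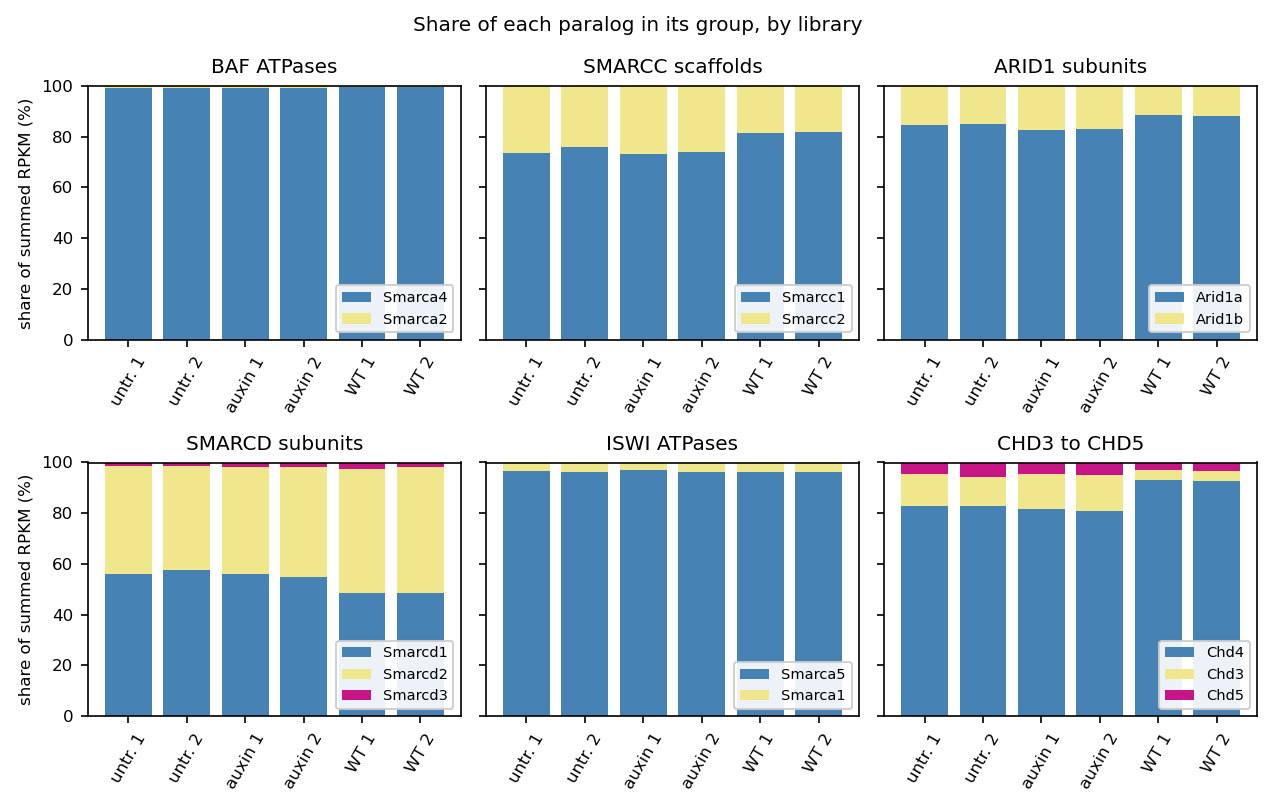
Share of each paralog in the summed RPKM of its set, in percent, as stacked bars with a bar per library (untr., untreated; auxin, auxin for 6 h; WT, wild-type). Smarca4 and Smarca5 fill nearly all of their sets in every library, and Chd3 takes 12.7% and 11.4% of the CHD3 to CHD5 set in untreated and 3.97% and 3.93% in wild-type libraries.

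Promoters of the genes that the comparisons below turn on are shown to place them in the genome. RefSeq promoter windows (GRCm38.p6, the assembly also called mm10), from 250 bases before to 50 bases after an annotated start, were found for 26 of the 36 members, in 33 windows. The median number of CG dinucleotides was 25 in these windows and 7 over all 32851 windows, and 66.7% of the member windows against 26.5% of all windows held 20 or more. The letters TATAAA, searched on both strands, were present in 2 of the 33 windows (6.06%) and in 13.6% of all, and CCAAT, also on both strands, in 12 (36.4%) and in 37.4% of all. Of these, 4 windows are printed 5′ to 3′ with each CG in capitals: Smarcad1 (chr6:65042341-65042640, + strand, 19 CG), which was the member called lower after auxin, Smarca4 (chr9:21615919-21616218, + strand, 33 CG) and Smarcc1 (chr9:110131774-110132073, + strand, 33 CG), which were both called higher in wild-type, and Smarca2 (chr19:26604910-26605209, + strand, 29 CG), the member of lowest level. None of the 4 holds TATAAA or CCAAT, and a second RefSeq window of Smarcad1 (chr6:65042956-65043255, + strand, 25 CG), not printed, holds 1 CCAAT. The Smarcc1 window lies inside the GENCODE gene (chr9:110117708-110240178), downstream of its first annotated base.
Smarcad1: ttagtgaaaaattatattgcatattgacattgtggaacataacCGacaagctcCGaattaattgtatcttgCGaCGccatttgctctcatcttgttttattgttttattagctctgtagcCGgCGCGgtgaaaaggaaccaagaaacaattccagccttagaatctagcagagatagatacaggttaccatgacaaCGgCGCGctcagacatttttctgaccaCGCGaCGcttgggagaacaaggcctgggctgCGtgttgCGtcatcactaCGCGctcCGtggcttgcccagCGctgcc
Smarca4: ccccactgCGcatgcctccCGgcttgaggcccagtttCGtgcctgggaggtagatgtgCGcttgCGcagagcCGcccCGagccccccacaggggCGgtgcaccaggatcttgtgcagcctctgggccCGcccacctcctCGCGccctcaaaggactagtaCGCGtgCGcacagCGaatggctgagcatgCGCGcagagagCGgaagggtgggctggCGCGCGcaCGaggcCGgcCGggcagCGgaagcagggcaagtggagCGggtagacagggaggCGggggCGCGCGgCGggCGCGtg
Smarcc1: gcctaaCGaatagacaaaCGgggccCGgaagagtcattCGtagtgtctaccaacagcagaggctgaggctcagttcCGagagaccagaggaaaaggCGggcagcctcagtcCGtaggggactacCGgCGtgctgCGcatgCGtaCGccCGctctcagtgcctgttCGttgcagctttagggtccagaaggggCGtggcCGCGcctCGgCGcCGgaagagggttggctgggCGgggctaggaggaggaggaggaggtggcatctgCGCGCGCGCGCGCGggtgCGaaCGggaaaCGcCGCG
Smarca2: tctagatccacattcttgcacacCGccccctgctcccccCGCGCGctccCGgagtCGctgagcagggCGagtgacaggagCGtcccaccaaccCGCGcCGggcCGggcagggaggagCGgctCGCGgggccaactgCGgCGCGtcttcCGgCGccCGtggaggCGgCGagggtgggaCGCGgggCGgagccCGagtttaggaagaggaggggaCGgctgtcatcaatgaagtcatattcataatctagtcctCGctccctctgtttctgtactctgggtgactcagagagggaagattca
The Smarca2 window held 29 CG, and those of Smarca4 and Smarcc1 held 33 each. In untreated cells Smarca2 stood at 0.347 and Smarca4 at 43.0 RPKM by merged exons (a 124-fold difference). By the longest transcript Smarca2 stood at 0.837 and Smarca4 at 43.7 RPKM.

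The first comparison asked which remodeler genes changed after 6 h of auxin, when Pol II had been degraded. Among the 36 members, 1 was called lower and 0 higher at an adjusted p under 0.05, by the edgeR quasi-likelihood test with Benjamini-Hochberg adjustment over all 16128 genes tested. Over all genes 4.20% were called, 1.64% lower and 2.56% higher, so the share of members called lower was close to this background. Without adjustment, 10 of the 36 members had p under 0.05, against 20.1% of all genes. No member was called with a change past 1 on the log2 scale, as 1.53% of all genes were. Of the 8189 genes with a mean of 300 counts or more, 6 were, all of them higher. DESeq2 called none of the 36 members in either direction, beside 1.37% of all genes. Members had a median log2 fold change of -0.02 and all genes one of -0.0004, with 16 members above and 20 below 0.

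The called gene was Smarcad1 (chr6:65042583-65116061, + strand). It had 1438 and 1269 counts in the untreated and 1185 and 1118 in the auxin libraries, or 101.6 and 88.4 CPM against 76.6 and 73.8 CPM after scaling. Both auxin libraries lay below both untreated ones. The groups also did not overlap, in either direction, for 18 of the 36 members and 8040 of the 16128 genes. Smarcad1 fell by 20.9% (log2 fold change -0.34 ± 0.08 SE, adjusted p = 0.0319, edgeR). This call did not hold with DESeq2 (adjusted p = 0.0804), with library totals as the scaling (0.0502), without the filter on low counts (0.139), with scaling to mitochondrial mRNAs (0.216), or without auxin replicate 1 (0.163) or 2 (0.248). The log2 fold change was between -0.51 and -0.24 in those fits and in the ones that kept the call, the latter value without untreated replicate 1. In wild-type cells Smarcad1 had 1470 and 1632 counts.

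The members nearest to the threshold came from the INO80 and ARID5 families. Arid5b, a DNA-binding partner of a histone demethylase, had 766 and 751 counts untreated and 659 and 670 after auxin (log2 fold change -0.29 ± 0.08 SE, adjusted p = 0.0517, edgeR). Ino80, the ATPase of its complex, had 1007 and 1020 counts untreated and 935 and 874 after auxin (-0.27 ± 0.07 SE, adjusted p = 0.0548). Neither passed the test, and with DESeq2 their adjusted p values were 0.318 and 0.297. Both were called lower with all 3 groups in one fit (-0.31 and -0.29), which called 7.5% of all genes. The main fit called 4.20%. With 1 library left out, Arid5b ranged from -0.33 to -0.27 and Ino80 from -0.30 to -0.24. Of the other INO80 subunits, Ino80b was at 0.27 (adjusted p = 0.109) and Ino80d at -0.19 (adjusted p = 0.172) on the log2 scale, so this family held both the highest and one of the lowest values. Chd3 was at 0.22 (adjusted p = 0.123), at 0.30 without untreated replicate 1 and at 0.13 without untreated replicate 2. In the same 2 fits Chd7, a CHD gene needed in neural crest, was at 0.26 and 0.10. Arid4b was at -0.14 and -0.29 in them, and Ino80d at -0.14 and -0.24.

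For most members the data limit the change to a narrow range. The 95% interval of the log2 fold change lay within 0.5 of 0 for 32 of the 36, against 58.7% of all genes, and the exceptions were Smarcad1 and the weakly counted Smarca2, Smarcd3 and Arid5a. Interval width depends in part on counts, and 32 of the 36 members had a mean of 300 counts or more. The share of such genes with an interval within 0.5 of 0 was not computed. The change itself was under 0.5 in either direction for all 36 members, as it was for 88.7% of all genes and 99.1% of the 8189 genes with a mean of 300 counts or more. Chd4 had 7492 and 7532 counts untreated and 8040 and 7807 after auxin, with an interval from -0.18 to 0.12. Smarca4 had 4052 and 3984 counts untreated and 4597 and 4477 after auxin, with an interval from -0.07 to 0.22. The core BAF subunits Smarcb1 and Smarce1, which are present in nearly every BAF complex, were at 0.01 each, with intervals from -0.16 to 0.18 and from -0.14 to 0.16. By family, the SMARCC pair was at -0.02 (Smarcc1) and 0.06 (Smarcc2), Smarcd1 and Smarcd2 were at -0.09 and -0.02, the ISWI pair was at 0.04 (Smarca5) and -0.05 (Smarca1), and Chd1 and Chd2 were at -0.09 and -0.11. The members not yet named ranged from Chd6 at -0.15 to Smarcd3 at 0.25, with Smarca2 at 0.21, Arid3a at 0.20 and Arid1b at 0.17 next below Smarcd3, and none of these passed the test. The plot of changes after auxin shows these intervals around 0.

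**Figure D3:**
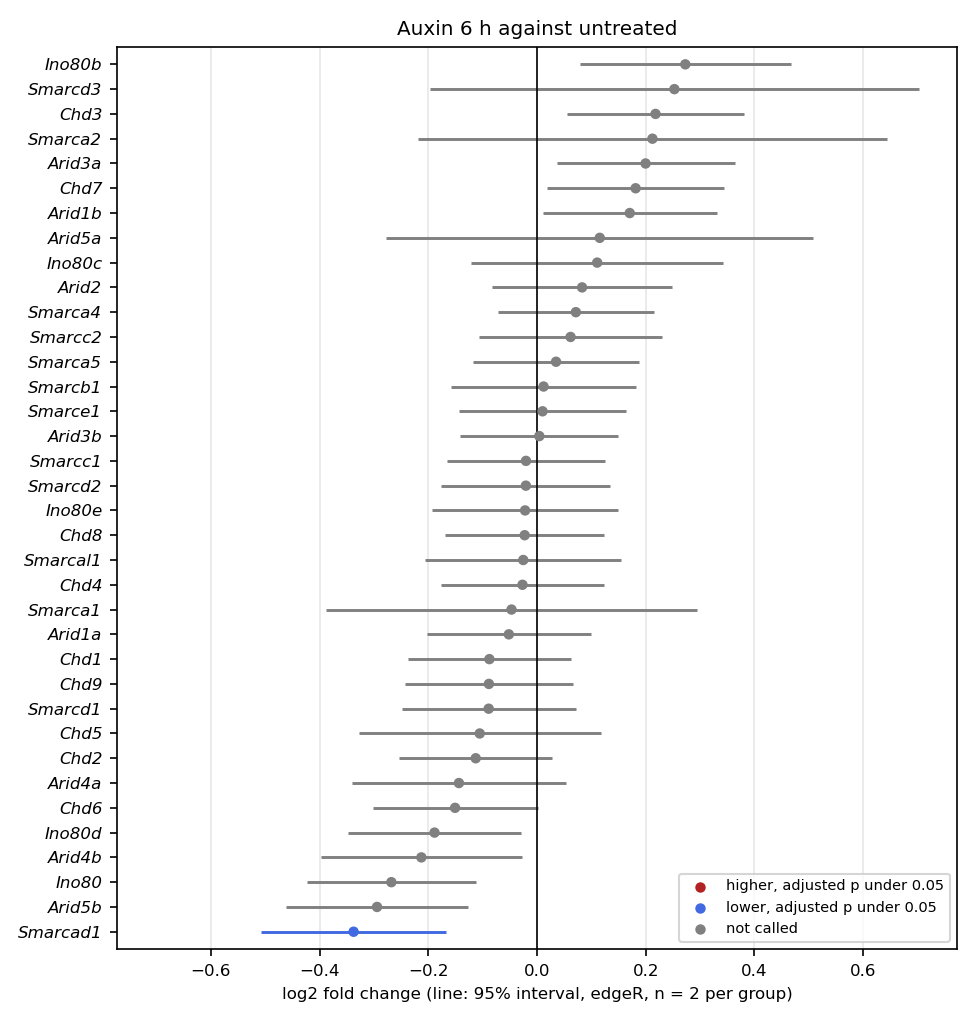
Log2 fold change of each member after 6 h of auxin against untreated (points) with its 95% interval from edgeR (lines), n = 2 libraries per group, ordered by size. Smarcad1, at -0.34, is the member drawn as called, and the intervals of Smarcd3 and Smarca2 are the widest.

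Related genes that do not carry the symbols of the rule, called partner genes here, were counted in 6 lists. The lists of other SNF2-type ATPases and other ARID genes hold genes of the same protein families. The rest were written from known complex membership. After auxin, 0 of 17 other BAF subunits, 0 of 11 ISWI partners, 0 of 12 NuRD subunits, 0 of 13 other SNF2-type ATPases and 0 of 4 other ARID genes were called by edgeR, and 2, 4, 1, 5 and 1 of them had an unadjusted p under 0.05, beside 4.20% of all genes called and 20.1% with an unadjusted p under 0.05. Of 17 partners in the INO80, SRCAP and TIP60 complexes, 1 was called, and 7 had an unadjusted p under 0.05. It was Nfrkb, a subunit of the INO80 complex of animals, with 553 and 567 counts untreated and 430 and 428 after auxin (log2 fold change -0.49 ± 0.09 SE, adjusted p = 0.00813). No partner gene was called lower, Nfrkb included, with mitochondrial mRNA scaling, without the filter or without either auxin library. The median log2 fold change of that list was -0.12, and those of the other lists ranged from -0.12 for the SNF2-type ATPases to 0.0001 for the BAF subunits, beside -0.0004 for all genes.

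The second comparison set the wild-type cells against the untreated degron cells, as a check of what the tag and the engineered line carry with them. It shares the untreated libraries with the first comparison. The wild-type libraries were deposited in a separate table, and clone, tag, doxycycline and any difference in preparation cannot be told apart. Over all 15778 genes tested 60.6% were called, 29.9% higher and 30.7% lower in wild-type, and 64.6% had an unadjusted p under 0.05. Among the 36 members 21 were called higher, 3 lower and 12 not at all, and 25 had an unadjusted p under 0.05. The share of members called either way, 66.7%, was near the background, and the 21 called higher are to be read beside the 29.9% of all genes. Of the 8061 genes with a mean of 300 counts or more, 3185 were called higher and 2421 lower (69.5% either way). Their median log2 fold change was 0.06. Of the 31 members with such counts, 19 were called higher and 3 lower (71.0%). Members had a median log2 fold change of 0.21, and all genes one of -0.01. No member was called with a change past 1, against 18.1% of all genes. Of the 8061 genes with a mean of 300 counts or more, 367 were called higher and 316 lower past 1. All members together took 0.389% and 0.369% of the counts in the untreated, 0.377% and 0.378% in the auxin and 0.486% and 0.498% in the wild-type libraries.

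Several features of the libraries moved with these calls. Summed mESC markers were at 3979 and 4472 CPM untreated and at 6464 and 6427 CPM in wild-type, with 5 of 8 called higher and 1 lower. Feeder markers, whose sum was mostly Fn1, were at 2119 and 2082 CPM untreated and 1643 and 1671 CPM in wild-type. Of the 6 feeder markers tested, 1 was called higher and 3 lower. The 13 mitochondrial mRNAs took 0.342% and 0.401% of the counts untreated and 1.53% and 1.50% in wild-type. When the libraries were scaled to these mRNAs, the median of all genes moved to -2.10 and all 36 members were called lower, although the median of the members was still 0.21 above that of all genes. Directions in this comparison are therefore stated relative to the median of all genes under the TMM scaling of edgeR. The part of these differences in the members' values was not tested.

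The NuRD ATPases changed in opposite directions. Chd4 (chr6:125095981-125130591, + strand) had 7492 and 7532 counts untreated and 13114 and 13391 in wild-type, 1.78-fold more (log2 fold change 0.83 ± 0.06 SE, adjusted p = 4.49e-07, edgeR). Chd3 (chr11:69343273-69369406, - strand) had 1210 and 1090 counts untreated and 590 and 597 in wild-type, and fell by 48.0% (-0.94 ± 0.08 SE, adjusted p = 1.4e-06). Chd5, the third paralog and best known from neurons, had 484 and 608 counts untreated and 527 and 548 in wild-type and was not called (-0.01, adjusted p = 0.931). These 3 genes can each supply the ATPase of NuRD, and in these libraries 1 was higher, 1 lower and 1 overlapped between groups.

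In 3 of the BAF paralog sets the gene of higher level was called higher in wild-type and its paralog was not called. The difference between paralogs was not tested. Smarcc1 (chr9:110117708-110240178, + strand) had 3374 and 3515 counts untreated and 5678 and 5682 in wild-type (log2 fold change 0.73 ± 0.06 SE, adjusted p = 9.3e-07, edgeR). Smarca4 (chr9:21616169-21704230, + strand) had 4052 and 3984 counts untreated and 5985 and 6100 in wild-type (0.60 ± 0.06 SE, adjusted p = 4.49e-06). Arid1a (chr4:133679008-133756769, - strand) had 4090 and 4160 counts untreated and 5989 and 6295 in wild-type (0.59 ± 0.06 SE, adjusted p = 5.75e-06). Of their paralogs, Smarcc2 was at 0.15 (adjusted p = 0.11), Smarca2 at -0.28 (adjusted p = 0.282) and Arid1b at 0.14 (adjusted p = 0.111). Smarcd2 (chr11:106263179-106272972, - strand) had 1093 and 1183 counts untreated and 1618 and 1693 in wild-type (0.55 ± 0.07 SE, adjusted p = 2.98e-05), while Smarcd1 was at 0.08 (adjusted p = 0.356). Arid2, of PBAF, was at 0.53 (adjusted p = 0.00016).

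Smarcd3 (chr5:24590818-24624411, - strand) had 55 and 59 counts untreated and 123 and 94 in wild-type (0.94 ± 0.21 SE, adjusted p = 0.00253, edgeR). Of its exon bases, 48.2% lie opposite Chpf2 on the other strand. Whether counting used strand is not given in the sources used here, so part of these counts cannot be assigned to Smarcd3. Of the core subunits, Smarcb1 was at 0.20 (adjusted p = 0.0272), a call that was lost when any library except untreated replicate 2 was left out, with values from 0.15 to 0.25, and Smarce1 was at -0.06 (adjusted p = 0.437).

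All 4 genes of the CHD6 to CHD9 subfamily, both ARID4 genes and Arid5b were called higher in wild-type. Chd9 (chr8:90828352-91054516, + strand) had 1804 and 1660 counts untreated and 2458 and 2657 in wild-type (0.57 ± 0.07 SE, adjusted p = 2.84e-05, edgeR). Chd7 (chr4:8690406-8867659, + strand) had 1298 and 1178 counts untreated and 1791 and 1861 in wild-type (0.57 ± 0.07 SE, adjusted p = 3.57e-05). Chd8, known for its link to autism, was at 0.50 (adjusted p = 3.68e-05) and Chd6 at 0.21 (adjusted p = 0.0201). Arid4a (chr12:71015990-71098592, + strand) had 464 and 445 counts untreated and 677 and 733 in wild-type (0.64 ± 0.08 SE, adjusted p = 3.24e-05). Arid4b (chr13:14063232-14199603, + strand) had 691 and 628 counts untreated and 995 and 994 in wild-type (0.60 ± 0.08 SE, adjusted p = 3.56e-05). Arid5b (chr10:68092520-68278740, - strand) had 766 and 751 counts untreated and 1122 and 1140 in wild-type (0.59 ± 0.07 SE, adjusted p = 1.94e-05).

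Of the remaining called members, Smarca1 was at 0.51 (adjusted p = 0.00923), Ino80d at 0.48 (adjusted p = 0.000252) and Smarca5 at 0.43 (adjusted p = 8.58e-05), and of the Smarca5 sequence 16.8% of all 100-base stretches recur in other annotated genes, Smarca5-ps among them. The same share was 16.7% for Chd2 and 11.0% for Smarce1, and 16.4% of the exon bases of Ino80e and 12.7% of those of Smarcd1 lie opposite other genes, so their counts are uncertain to that extent. Arid3b fell by 22.3% (-0.36, adjusted p = 0.000639) and Ino80b by 16.6% (-0.26, adjusted p = 0.0432). Chd1 (0.21), Smarcad1 (0.21) and Ino80 (0.17) were called higher at adjusted p values of 0.0163, 0.0447 and 0.0485. Several of these calls depended on the fit. DESeq2 did not call Chd6, Ino80, Ino80b, Smarca1, Smarcad1 or Smarcb1, library totals as the scaling did not call Chd1, Chd6, Ino80, Smarcad1 or Smarcb1, and the fit without a filter did not call Chd1, Chd6, Ino80, Ino80b, Smarcad1 or Smarcb1. Ino80 was called in 4 of 11 fits. Without wild-type replicate 1 the calls of Chd1 (0.24), Chd6 (0.26), Ino80 (0.15), Smarca1 (0.49) and Smarcb1 (0.17) were lost, and without wild-type replicate 2 those of Chd1 (0.19), Chd6 (0.18), Ino80 (0.19), Ino80b (-0.14), Smarcad1 (0.14) and Smarcb1 (0.25). Without untreated replicate 1 Ino80b (-0.27) and Smarcb1 (0.15) lost their calls, while Arid3a (0.20) and Smarcc2 (0.22) gained one. Without untreated replicate 2 Chd6 (0.15), Ino80b (-0.26) and Smarcad1 (0.11) lost theirs, while Arid5a (0.51) and Smarcd1 (0.17) gained one. The other 17 of the 24 called members were called in each of the 11 fits other than the one scaled to mitochondrial mRNAs. The members not called and not yet named were Arid3a at 0.17 (adjusted p = 0.0503), Arid5a at 0.37, Smarcal1 at 0.07, Ino80e at 0.02, Ino80c at -0.03 and Chd2 at -0.07.

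**Figure D4:**
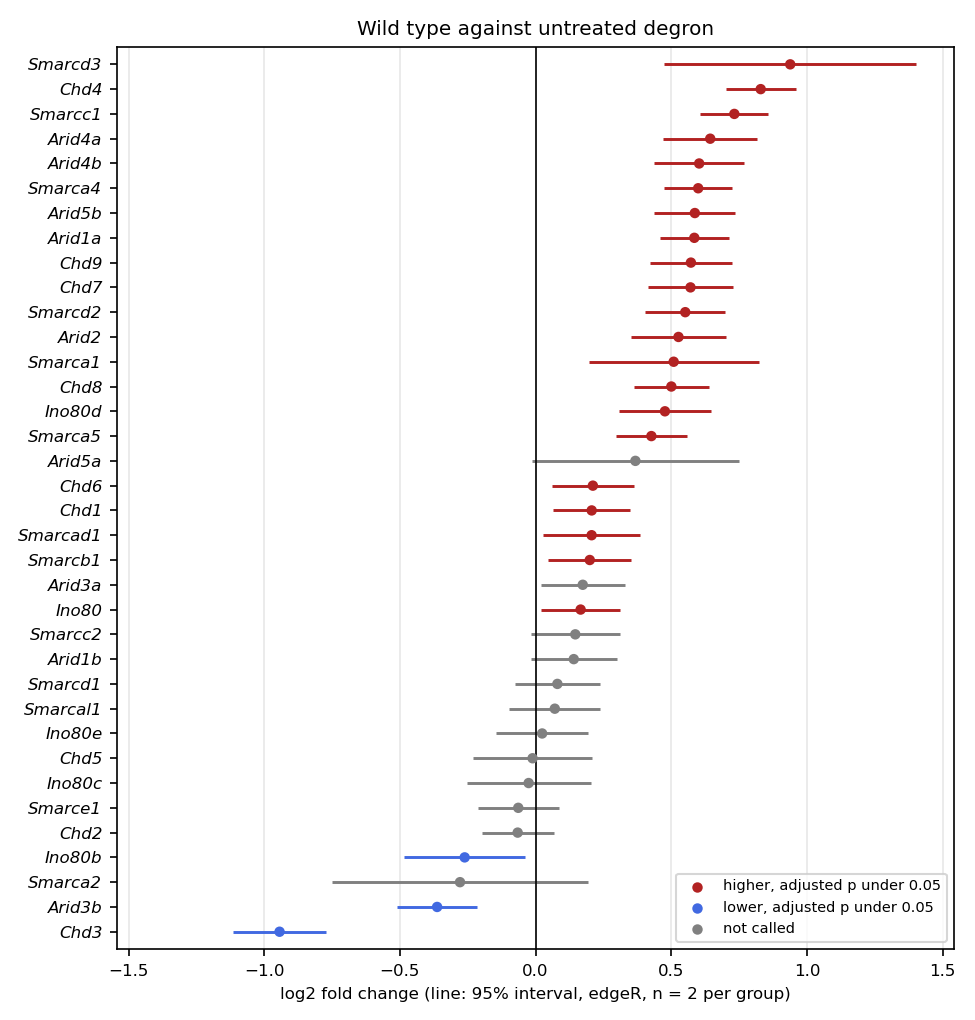
Log2 fold change of each member in wild-type against untreated degron cells (points) with its 95% interval from edgeR (lines), n = 2 libraries per group, ordered by size. Smarcd3 (0.94) and Chd4 (0.83) stand at the upper end and Chd3 (-0.94) at the lower end, with 21 members drawn as called higher and 3 as called lower under TMM scaling.

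In the partner lists the same scaling gave more calls of higher than of lower level in wild-type. Of the 16 other BAF subunits tested, 6 were called higher and 3 lower. The 3 higher with the smallest p were Gltscr1l, a subunit of the non-canonical BAF complex (log2 fold change 0.99), Actb, beta-actin (1.06), and Ss18 (0.72), and the 3 lower were the PBAF subunit Phf10 (-1.02), Dpf2 (-0.34) and Bcl7b (-0.38). Phf10 had 2182 and 2196 counts untreated and 1088 and 1060 in wild-type (adjusted p = 1.72e-07, edgeR). Of the 11 ISWI partners 6 were called higher, led by the histone chaperone Rbbp4 (0.62), Cecr2 (0.67) and Baz2a (0.39), and of the 12 NuRD subunits 7, led by Rbbp4, Mta2 (0.37) and the deacetylase Hdac2 (0.38). Of the 17 INO80, SRCAP and TIP60 partners 8 were called higher, led by the ATPases Ruvbl2 (0.79), Ruvbl1 (0.55) and Ep400 (0.49). None of these 3 lists held a gene called lower, where 30.7% of all genes were. So were 2421 of the 8061 genes with a mean of 300 counts or more.

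Of the 13 other SNF2-type ATPases 11 were called higher, led by the recombination enzymes Rad54l (0.92) and Rad54b (0.92) and by Hltf (0.90), and their median log2 fold change was 0.65. All 4 other ARID genes, which are Jarid2 (0.60) and the H3K4 demethylases Kdm5c (0.53), Kdm5b (0.28) and Kdm5a (0.23), were called higher. The background for calls in this direction was 29.9% of all genes, and 3185 of the 8061 genes with a mean of 300 counts or more.

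Across the 36 members, the change after auxin and the change in wild-type were set against gene properties as a description only. Spearman's rho with the length of the gene's span was -0.351 for the auxin change and 0.349 for the wild-type change. With the length of the merged exons it was -0.344 and 0.123, and with their number -0.222 and 0.117. With the untreated RPKM it was 0.0324 and -0.00309. The same values over all genes were not computed, so a trend common to all genes cannot be told apart. The points share their libraries, and both changes share the untreated ones, so these values are not independent of each other.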

How the data were processed

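The data were polyA RNA-Seq counts of 6 libraries, 2 from each of 3 groups. The authors aligned paired reads to mm10 with HISAT2 2.1.0 and counted them per gene with Salmon and HTSeq, as their processing notes name, and deposited whole-number counts of 39017 genes without normalization, in separate tables for the degron and wild-type libraries. The strand setting is not given in the sources used here. The authors' DESeq2 columns of the degron table (log2 fold change, fold and p-value) were not used, nor were 2 columns of per-sample values that match no sample of the series. Nothing states that the libraries of a group came from separate cultures beyond the study's general note on biological replicates, so p-values may measure technical spread only. Counting error sets the precision of genes with few counts.

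Each comparison was fitted on its own 4 libraries with edgeR 4.0.16 in R 4.3.3, by glmQLFit and glmQLFTest with TMM scaling, filterByExpr with a minimum count of 10, a prior count of 0.125 and Benjamini-Hochberg adjustment over all genes tested. Genes were called at an adjusted p under 0.05, and in a separate count also with an absolute log2 fold change over 1. The SE is the log2 fold change divided by the root of the F statistic, and intervals are at 95%. RPKM used the merged exons of GENCODE vM21 and TMM scaling over all 6 libraries. The procedure was tested on simulated counts that gave each gene the same spread in both groups. That test cannot show how the procedure behaves where the groups differ in spread, as they did here (values below). Members and lists were chosen with earlier results of these data known. Given library by library were the members called after auxin and the 12 called members with the largest change in wild-type, with others added after their values were seen, and from each partner list at most 3 called genes of smallest p per direction. The alternatives were DESeq2 1.42.0, its size factors, library totals, mitochondrial mRNA scaling, other filters, a replicate block, all 3 groups in one fit, each library left out, and the longest transcript as length. In the partner lists Gltscr1 and Gltscr1l stand for Bicra and Bicral, and Srcap was not matched by symbol.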

Additional observations from a re-analysis of the deposited data

How the results depend on the processing

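After auxin, members called lower numbered 1, and 0 with DESeq2, library totals, mitochondrial mRNA scaling or no filter, and 3 with all 3 groups in one fit. Over all genes these 5 fits called 1.37%, 3.85%, 1.36%, 0.213% and 7.5% in that order, beside 4.20% in the main fit. Members called higher numbered 0 in each of these fits. Both counts, and the share of all genes called, also moved when 1 library was left out. The call of Smarcad1 was lost in the fits with DESeq2, library totals, mitochondrial mRNA scaling or no filter. Its log2 fold change there ranged from -0.51 with mitochondrial mRNA scaling to -0.32 with library totals, and was -0.31 without auxin replicate 2. Fits without 1 library assume that the lone library of its group varies like the others. The 2 untreated libraries differed more from each other (chi-square per degree of freedom 5.72 across genes) than the auxin (2.31) or wild-type libraries (2.60). Without 1 untreated library, the spread is taken from the other group alone. Of the partner genes, 0 were called higher and 1 lower. The gene called lower was Nfrkb. The count lower was 0 with mitochondrial mRNA scaling or no filter, 8 with all 3 groups in one fit and 0 to 12 with 1 library left out, and the count higher was 0 to 4 with 1 library left out. The largest of these partner counts, in both directions, came from the fit without untreated replicate 1. That fit also called a larger share of all genes than the main fit. The fits without 1 auxin library called a smaller share of all genes than the main fit. The partner counts with 1 library left out therefore do not set the partner genes apart from all genes. The causes were not tested.

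Whether the replicate numbers pair the libraries is not given in the sources used here. The deviations of same-numbered libraries correlated at 0.0696 in the auxin and -0.0289 in the wild-type comparison across genes. With 2 libraries per group this cannot decide whether they are paired. The fit without a replicate term called 4.20% of all genes after auxin. With the replicate block, 12.0% of all genes were called after auxin, and among the members Chd3 and Ino80b were called higher and Smarcad1, Arid5b and Ino80 lower (2 and 3), and 2 partner genes higher and 8 lower. In wild-type the block left 20 members called higher and 3 lower.

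In wild-type, 21 members were called higher and 3 lower. Outside mitochondrial mRNA scaling, fits with all libraries kept gave 16 to 22 higher and 2 to 3 lower. The share of all genes called in these fits ran from 32.5% without the filter to 61.4% with the replicate block, beside 60.6% in the main fit. All 24 had the same sign in 11 fits. Scaling to mitochondrial mRNAs gave 0 members higher and 36 lower, all 36 past 1, and 0 partner genes higher and 71 lower in place of 41 and 3. That scaling moved the median log2 fold change of all genes to -2.10 in wild-type and -0.17 after auxin, and the part of all calls that lay on the higher side from 49.3% to 0.477% and from 61.0% to 76.3%. It turned these log2 fold changes negative: Smarcd3 (-1.15), Chd4 (-1.27), Smarcc1 (-1.36), Arid4a (-1.45), Arid4b (-1.50), Smarca4 (-1.50), Arid5b (-1.51), Arid1a (-1.51), Chd9 (-1.53), Chd7 (-1.53), Smarcd2 (-1.54), Arid2 (-1.58), Smarca1 (-1.58), Chd8 (-1.60), Ino80d (-1.62), Smarca5 (-1.67), Arid5a (-1.72), Chd6 (-1.89), Smarcb1 (-1.89), Chd1 (-1.90), Smarcad1 (-1.90), Arid3a (-1.93), Ino80 (-1.93), Smarcc2 (-1.96), Arid1b (-1.96), Smarcd1 (-2.01), Smarcal1 (-2.02), Ino80e (-2.07). With library totals 1 member, Chd3 (-1.003), passed 1 on the log2 scale. With 1 library left out, 0 to 1 members passed 1, which were Chd3 (-1.03) without untreated replicate 2 and Smarcd3 (1.13) without wild-type replicate 2, and 3 to 7 partner genes were called lower. Library totals gave 67.1% of calls as higher after auxin and 43.7% in wild-type. Depth limits Smarca2, Smarcd3 and Arid5a most, with 53 to 131 counts per library.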
